A study of Mus musculus with 4 samples.

Results

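RNA of 10 endothelial and sinusoidal genes was followed in mouse liver cell preparations of 2 stages. The genes were chosen by name, and every probe on the array that carried one of these gene names was used, which gave 16 of 41174 probes for 10 of 30038 gene names. They were the sinusoidal surface genes Clec4g, Fcgr2b, Stab1 and Stab2, the receptors Kdr, Tek and Robo4, the junction genes Cdh5 and Pecam1, and the secreted factor Egfl7. Endothelial cells line blood vessels and meet each other at junctions built with VE-cadherin. In the liver they line the sinusoids, where the wall is perforated, lacks an ordinary basement membrane and clears waste molecules and immune complexes from blood through scavenger, lectin and Fc receptors. Growth and quiescence of the vessel wall are set by receptors for vascular endothelial growth factor (VEGF), angiopoietins and Slit-related guidance signals, and the hepatocyte lineage is a known source of VEGF in the liver.

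Hepatoblasts were taken at embryonic day 13 (E13 hepatoblasts, n = 2) and hepatocytes at 8 weeks of age (adult hepatocytes, n = 2) from livers of C57BL/6NCr mice, and the RNA of each sample was hybridised to a one-colour Agilent array. Hepatoblasts are the fetal progenitors of hepatocytes and bile duct cells. No transgene, treatment or sex was named for either group, and how the cells were isolated was not given in the sources used here. Whether the 2 samples of a group are separate animals is not given, so the p-values cover no more than the spread between them, which may be technical. Values are log2 signals relative to the 75th percentile of the array, so that 0 is the level of that percentile and a difference of 1 is 2-fold. A probe is detected on an array where the scanner software marked it as well above background. In bulk RNA of this kind, fewer cells of a type and less RNA per cell cannot be told apart.

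Between 23040 and 23763 probes were detected on the E13 arrays and between 19299 and 20039 on the adult arrays. Of 7 hepatoblast markers, 6 were tested and all 6 were higher in E13 hepatoblasts (32.8% of all genes tested were), among them Igf2, H19 and Afp. Epcam was not detected on any array. All 8 hepatocyte markers were higher in adult hepatocytes (32.1% of all genes tested were), led by Cyp2e1, G6pc and Cps1. Both groups therefore carried the genes of their labelled cell type, and endothelial genes were read beside them at the levels below.

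The E13 arrays stood apart from each other in these genes. Of the 9 endothelial and sinusoidal genes that could be tested, 5 (55.6%) were more than 2-fold higher on E13 array 1 than on E13 array 2, against 446 (2.72%) of all 16422 genes tested. Where E13 array 2 did not detect a gene, a gap is given as a bound, against the lowest detected signal of that array, and with such genes at their bounds the counts were 5 of 9 and 371 (2.26%). None of the 9 was more than 2-fold higher on E13 array 2, as were 0.627% of all genes. The gaps of the 5 were 2.33 on the log2 scale in Kdr, 1.46 in Clec4g and 1.02 in Stab2, and at least 2.51 in Robo4 and at least 2.14 in Cdh5, neither of which was detected on E13 array 2. Stab1 (0.22), Egfl7 (-0.01) and the detected probe of Tek (-0.02) had nearly the same signal on both. Fcgr2b was below background on both E13 arrays, so that its gap of -0.71 is no measured difference.

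Other lists split the E13 arrays as well. Of the 25 tested endothelial identity genes, a separate list of vessel genes that holds none of the 10, 14 were more than 2-fold higher on E13 array 1 with undetected values at their bounds. The same count was 7 of 18 among sinusoidal endothelial genes, 8 of 8 among erythroid markers, 2 of 11 among Kupffer cell and macrophage markers, 2 of 9 among platelet and megakaryocyte markers, 4 of 9 among stellate and mesenchymal markers, 1 of 3 among leukocyte and B cell markers and 1 of 8 among hepatocyte markers. By direction alone, E13 array 1 was higher in all 9 platelet markers (median gap 0.90), 9 of 11 macrophage markers (0.89) and 5 of 8 hepatocyte markers (0.29). Over all genes tested this share was 47.3%. The macrophage markers Clec4f, Vsig4 and Cd163 and the hepatocyte marker Cyp2e1 were detected on neither E13 array, so their gaps are no measured differences. The erythroid markers gave a summed signal of 205 times the 75th percentile on E13 array 1 and 49.8 times on E13 array 2, and 21.5 to 29.1 times on the adult arrays. Most of the adult sum was Alas2, an enzyme of heme synthesis named after its values were seen, and without it the sums were 203.7 and 49.3 on the E13 arrays and 1.23 to 3.24 on the adult arrays. Of the 8 tested, 5 were higher in E13 hepatoblasts, among them Ahsp, Hbb-b1 and Hba-a1, and Alas2 was higher in adult hepatocytes. All 9 tested stellate and mesenchymal markers were higher in E13 hepatoblasts, led by Reln, Col1a1 and Col1a2, with summed signals of 66.3 to 81.1 times against 8.11 to 9.05 times. Of all genes tested, 32.8% were called higher in E13 hepatoblasts. Of 6 hepatoblast markers 1 was higher on E13 array 1, with a median gap of -0.27. The part of any of these cells in the gap was not tested, and folds are given below with each E13 array left out. Such a fit sets the adult arrays against a single E13 array, so its spread comes from the adult pair alone and its adjusted p does not include the gap between the E13 arrays. Where E13 array 2 alone is left and did not detect the gene, the fold is a bound. The lists are general knowledge of liver cell types, and several of their genes are used by more than 1 cell type.

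**Figure D1:**
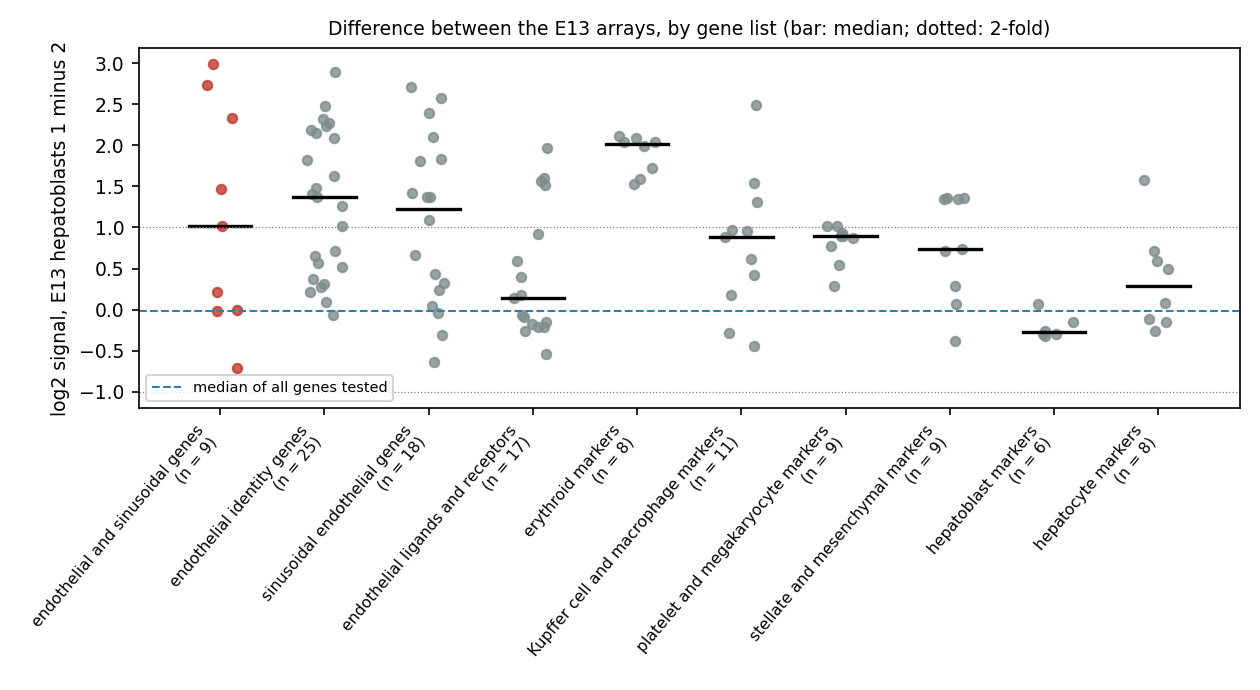
Difference in log2 signal between the 2 E13 arrays for the tested genes of each list, 1 point per gene, with black bars for list medians, dotted lines at a 2-fold difference and a dashed line for the median of all genes tested. Points of the 10 genes' group, the identity genes, the sinusoidal genes and the erythroid markers lie mostly above 0 (E13 array 1 higher), with medians of 1.02, 1.37, 1.23 and 2.02. Those of the platelet, macrophage and stellate lists do so as well, with medians of 0.90, 0.89 and 0.74. The ligands and receptors have a median of 0.14. Signals not well above background are plotted as measured.

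Of the 10 genes, 5 were higher in adult hepatocytes (Clec4g, Fcgr2b, Robo4, Kdr and Stab2), 2 were higher in E13 hepatoblasts (Egfl7 and Stab1), 2 did not pass the test (Cdh5 and Tek) and 1 was not tested (Pecam1). Calls were made at a Benjamini-Hochberg adjusted p under 0.05 from limma over 16422 genes. Calls were common: 64.8% of all genes tested were called, 32.1% as higher in adult hepatocytes and 32.8% as higher in E13 hepatoblasts. The median log2 fold of the 9 genes, adult over E13, was 2.09, against -0.01 over all genes tested. That median is the fitted fold of Cdh5, which was not called and which E13 array 2 did not detect. The median without E13 array 1, given below, is that of Cdh5 as well. Fcgr2b, Robo4 and Cdh5 were tested only because both adult arrays detected them. The groups did not overlap in any of the 9, which was so for 85.8% of all genes tested. The 5 and 2 calls were the same without E13 array 2, and without E13 array 1 Cdh5 joined the genes higher in adult hepatocytes, while the median moved to 3.59 without E13 array 1 and to 0.91 without E13 array 2. With an adult array left out the spread comes from the E13 pair alone, and without adult array 1 only 2 genes, and without adult array 2 only 3, were called higher in adult hepatocytes.

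**Figure D2:**
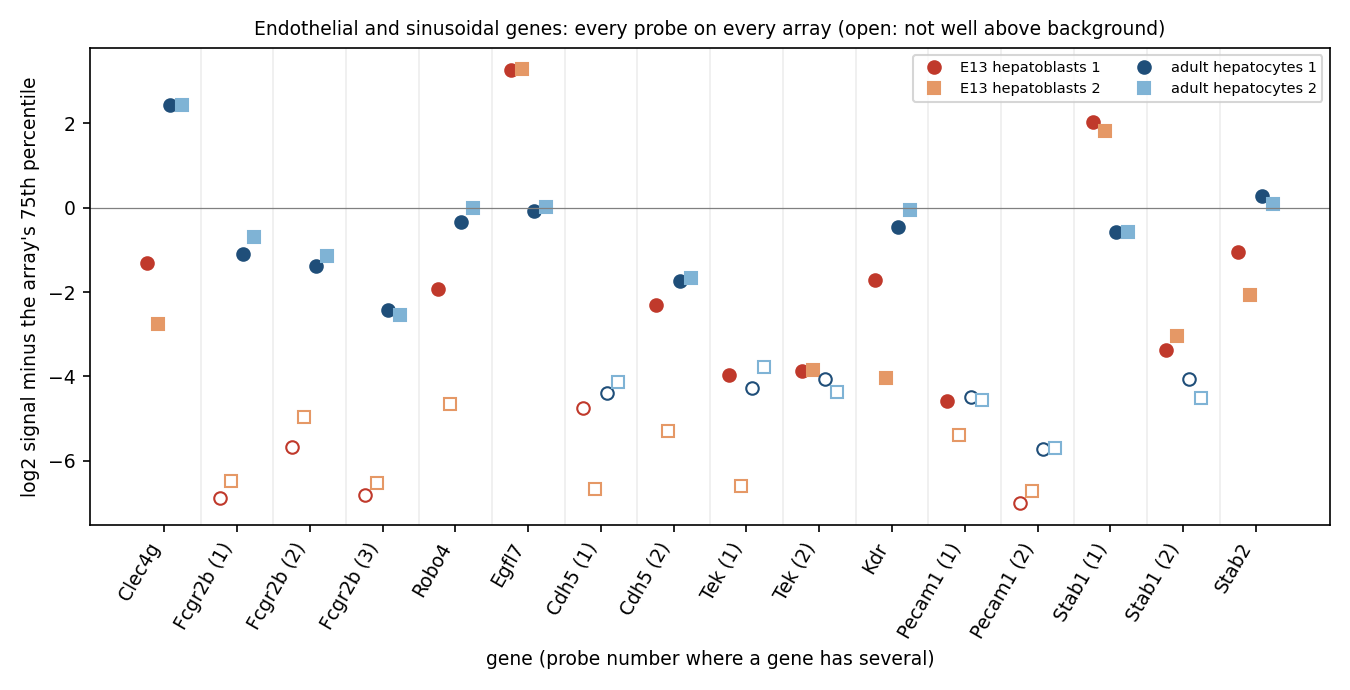
Log2 signal minus the 75th percentile of the array for each of the 16 probes on each of the 4 arrays, with filled symbols where the probe was well above background and open symbols where it was not. Adult symbols lie above E13 symbols for Clec4g, Fcgr2b, Robo4, Kdr and Stab2 and below them for Egfl7 and Stab1, and the red and orange E13 symbols are far apart for Robo4, Cdh5 and Kdr.

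Clec4g encodes a C-type lectin of the sinusoidal endothelium. Its log2 signal was -1.30 and -2.76 on the E13 arrays and 2.44 and 2.43 on the adult arrays. Both adult values were above both E13 values, and the adult arrays differed by far less than the E13 arrays. The log2 fold was 4.47 ± 0.50 (SE, n = 2 per group), or 22.2-fold, with an adjusted p of 0.00193 in limma. It was 5.20 without E13 array 1 and 3.74 without E13 array 2, and the call held in all 20 settings tried. The single Clec4g probe lies on the minus strand of chromosome 8, chr8:3716182-3716241 (mm9), and its first 30 of 60 bases are shown to identify the transcript read here.
Clec4g probe: tgtcagtctcaaaatcactgctctaaaccc

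Fcgr2b encodes the inhibitory Fc receptor for immunoglobulin G, which sinusoidal endothelial cells use to take up immune complexes and which B cells and macrophages also carry. All 3 of its probes were detected on both adult arrays and on neither E13 array. The probe with the highest mean over the 4 arrays read -5.68 and -4.97 on the E13 arrays and -1.39 and -1.14 on the adult arrays. Since the E13 values were not well above background, the difference is a bound, the adult mean over the higher of the E13 signal and the lowest detected signal of that array. By this bound Fcgr2b was at least 10.1-fold higher in adult hepatocytes, at least 9.03-fold without E13 array 1 and at least 11.2-fold without E13 array 2. The adjusted p of 0.000509 in limma is that of the fitted log2 fold of 4.06, against undetected E13 signals. The bound itself has no test. The bounds from the other probes were at least 13.0-fold, from a probe printed in 10 spots that was the brighter one on the adult arrays (-1.09 and -0.70), and at least 4.32-fold. All 3 probes were tested only because both adult arrays detected them, so their shared direction is no separate support.

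Macrophage markers also differed between the groups. Of 11 tested Kupffer cell and macrophage markers, 9 were higher in adult hepatocytes, as were 32.1% of all genes tested. The first 3 by fitted fold were Clec4f, at least 18.8-fold, Cd5l, 17.6-fold, and Cd163, whose bound of at least 3.23-fold is below the measured folds of other markers. The call of Cd5l was lost without adult array 1 (adjusted p = 0.0555 in limma). Their summed signal was 0.78 to 1.55 times the 75th percentile in E13 hepatoblasts and 5.73 to 6.93 times in adult hepatocytes, and Timd4 was not detected on any array. Of 10 leukocyte and B cell markers only 3 were tested, with 1 call each way, and Cd79a, Ms4a1, Cd3g, Nkg7 and Itgam were not detected on any array. Their summed signal was 0.64 to 0.67 in E13 hepatoblasts and 0.98 to 1.48 in adult hepatocytes. The adult sums include Ptprc, named after its values were seen, which read -1.28 on adult array 1 and -5.69, not detected, on adult array 2. The part of macrophages and leukocytes in the Fcgr2b, Stab1 and Clec4g values was not tested.

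Stab2 and Stab1 encode the stabilins, large scavenger receptors, of which Stab2 is known for hyaluronan uptake by sinusoidal endothelium and Stab1 is also made by macrophages. They were called in opposite directions. Stab2 read -1.04 and -2.06 on the E13 arrays and 0.29 and 0.08 on the adult arrays, so that the groups did not overlap. Its log2 fold was 1.74 ± 0.37 (SE, n = 2 per group), or 3.33-fold higher in adult hepatocytes, with an adjusted p of 0.0141 in limma. The fold was 2.25 without E13 array 1 and 1.23 without E13 array 2. Without adult array 1 the fold was 1.63 and the adjusted p was 0.0618, so that this call was lost.

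Stab1 read 2.03 and 1.81 on the E13 arrays and -0.58 and -0.57 on the adult arrays. The 2 values of each group lay close together and the groups were well apart. Stab1 was 5.66-fold higher in E13 hepatoblasts, a log2 fold of -2.50 ± 0.16 (SE, n = 2 per group) with an adjusted p of 0.000366 in limma. The fold was -2.39 without E13 array 1 and -2.61 without E13 array 2. A second, much dimmer Stab1 probe read -3.38 and -3.03 on the E13 arrays and was not detected on either adult array. Its bound was at least 1.19-fold higher in E13 hepatoblasts. The adjusted p of 0.0138 in limma over probes is that of its fitted fold, not of the bound. The dimmer probe was tested only because both E13 arrays detected it, so its direction is no separate support for that of the brighter probe. The 2 probes are set side by side because they read different stretches of the gene on the minus strand of chromosome 14. The brighter one lies at chr14:31952288-31952347 (mm9). The dimmer one, whose ends lie 144 bases apart in the genome for 60 bases of probe, lies at chr14:31972691-31972834 (mm9).
Stab1 brighter probe: ctcaaggtcaaatgatgagctggaatgaag
Stab1 dimmer probe: accttttcacagcaggcctttccaaacttc

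Egfl7 encodes a secreted protein of endothelial cells that binds the vessel matrix and takes part in tube formation. It read 3.27 and 3.28 on the E13 arrays and -0.07 and 0.02 on the adult arrays, so the values within each group were nearly equal. It was 9.84-fold higher in E13 hepatoblasts, a log2 fold of -3.30 ± 0.14 (SE, n = 2 per group) with an adjusted p of 0.000144 in limma. The fold was -3.30 with either E13 array left out. Egfl7 did not share the gap between the E13 arrays that Cdh5, Robo4 and Kdr had. The single Egfl7 probe lies on the plus strand at chr2:26447977-26448036 (mm9). Egfl7 is the host gene of a microRNA, which was not analysed here. RefSeq places the mature form, mmu-miR-126a-3p, within Egfl7 at chr2:26591402-26591423 on the plus strand (GRCm38.p6), and its seed, bases 2 to 8, is in capitals.
Egfl7 probe, first 30 bases: aggctggatagagcagtcatccctagatcc
mmu-miR-126a-3p: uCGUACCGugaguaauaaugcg

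Kdr encodes the main signalling receptor for VEGF on endothelial cells, and its probe was printed in 10 spots. It read -1.71 and -4.04 on the E13 arrays and -0.45 and -0.06 on the adult arrays. Both adult values were above both E13 values, and E13 array 1 was nearer to the adult arrays than to E13 array 2. The log2 fold was 2.62 ± 0.80 (SE, n = 2 per group), or 6.15-fold higher in adult hepatocytes, with an adjusted p of 0.0401 in limma. The fold was 3.79 without E13 array 1 and 1.45 without E13 array 2. Without adult array 1 the adjusted p was 0.104 in limma, and without adult array 2 it was 0.141.

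Robo4 encodes a Roundabout receptor of endothelial cells that is known to stabilise vessels. It read -1.92 on E13 array 1, -4.66 on E13 array 2, where it was not detected, and -0.34 and -0.02 on the adult arrays. The order of the arrays was that of Kdr. The log2 fold was 3.11 ± 0.92 (SE, n = 2 per group), or 8.65-fold higher in adult hepatocytes, with an adjusted p of 0.0376 in limma. It was at least 4.26 without E13 array 1 and 1.74 without E13 array 2, and the call was lost without adult array 1 (adjusted p = 0.106) and without adult array 2 (adjusted p = 0.131, both limma).

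Tek encodes Tie2, the receptor for angiopoietins. Its detected probe read -3.88 and -3.86 on the E13 arrays and -4.07 and -4.36 on the adult arrays, where it was not well above background. The log2 fold was -0.35 ± 0.17 (SE, n = 2 per group; 95% interval -0.79 to 0.10) with an adjusted p of 0.134 in limma. Both E13 values lay below the lowest detected signals of the adult arrays (-3.50 and -3.41). No bound could therefore be given, and the interval does not limit how far Tek was lower in adult hepatocytes. A second Tek probe read -3.96 and -6.59 on the E13 arrays and -4.28 and -3.78 on the adult arrays. It was detected on E13 array 1 alone and was therefore not tested. The 2 probes thus differed in whether E13 array 2 detected them. Without E13 array 2 the second probe represented Tek, with a fold of -0.07. They lie far apart on the plus strand of chromosome 4, the tested one at chr4:94408487-94408546 and the other at chr4:94540861-94540919 (mm9), and only the other carries a RefSeq accession in the files.
Tek tested probe: agttctcatagaacttagcagtgttacccc
Tek other probe: ctctaatgtgactgtatatactgctcggag

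Cdh5 encodes VE-cadherin, the adhesion molecule of endothelial junctions. It read -2.30 on E13 array 1, -5.28 on E13 array 2, where it was not detected, and -1.73 and -1.66 on the adult arrays. E13 array 1 lay close to the adult arrays and E13 array 2 far below them. The log2 fold was 2.09 ± 1.00 (SE, n = 2 per group; 95% interval -0.56 to 4.75) with an adjusted p of 0.128 in limma, so a difference was not shown and a large one was within the interval. The fold was at least 2.74 without E13 array 1 and 0.60 without E13 array 2, and of these fits Cdh5 was called in the former, which leaves out the E13 spread. A second Cdh5 probe was not detected on any array.

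Pecam1 encodes CD31, another adhesion molecule of endothelial junctions that platelets and leukocytes also carry. Its probe with 10 spots read -4.57 on E13 array 1, -5.40 on E13 array 2 and -4.48 and -4.56 on the adult arrays, and was well above background on E13 array 1 alone. Its other probe was not detected on any array. Pecam1 was therefore not tested, and a difference was not detectable at this signal. When detection on 1 array was enough, its log2 fold was 0.46 ± 0.32 (SE, adjusted p = 0.273 in limma), and without E13 array 2 it was 0.05. Platelet and megakaryocyte markers were at 25.2 to 47.7 times the 75th percentile in sum in E13 hepatoblasts and at 0.51 to 0.55 times in adult hepatocytes. All 9 were higher in E13 hepatoblasts (32.8% of all genes tested were), led by Pf4, Ppbp and Treml1. Their part in the Pecam1 values was not tested.

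**Figure D3:**
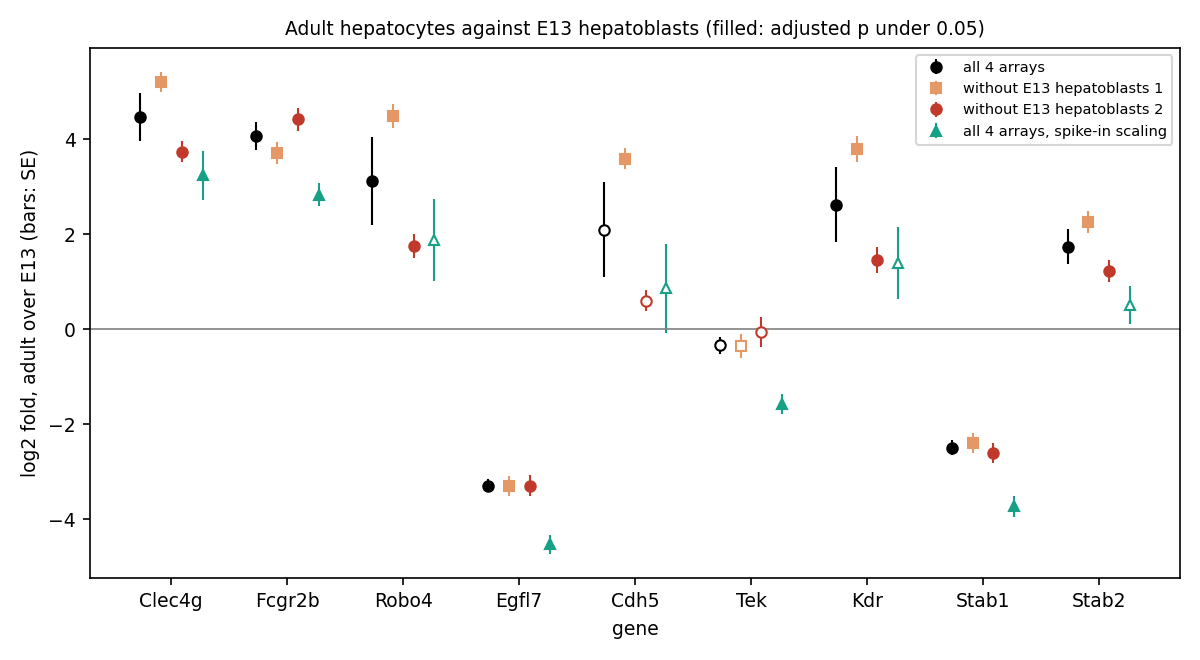
Fitted log2 fold, adult over E13, with its standard error for the 9 tested genes, from all 4 arrays, without each E13 array and with scaling to the spike-in control probes, with filled symbols where the adjusted p was under 0.05. Egfl7, Stab1, Clec4g and Fcgr2b were called in all 4 fits, while the folds of Robo4, Cdh5 and Kdr were 4.48, 3.59 and 3.79 without E13 array 1, the first and second of them plotted against an undetected signal, and 1.74, 0.60 and 1.45 without E13 array 2. Fits without an E13 array take their spread from the adult pair.

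Scaling to the spike-in probes in place of the 75th percentile lowered every fold by 1.23 on the log2 scale. No gene of the group changed direction under it, but the calls of Kdr (adjusted p = 0.134), Robo4 (adjusted p = 0.0867) and Stab2 (adjusted p = 0.283) were lost, and Tek was called higher in E13 hepatoblasts with a fold of -1.58 (adjusted p = 0.000738, all limma). When a probe needed to be detected on 1 array only to be tested, Kdr (adjusted p = 0.0595) and Robo4 (adjusted p = 0.0563, both limma) also missed the threshold. With normexp background correction Cdh5 was called higher in adult hepatocytes with a fold of 1.14 (adjusted p = 0.00612), and Tek turned to a fold of 0.38 (adjusted p = 0.0637, both limma).

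Sequence upstream of the start sites was read from RefSeq promoters of GRCm38.p6, which held 10 windows of 250 bases for 8 of the 10 genes, all but Cdh5 and Pecam1. ETS factors such as Erg and Fli1 are known regulators of endothelial genes, and their core motif AGGAAG, searched on both strands, was found upstream of 5 of the 8 genes and in 6 of 10 windows, against 29.5% of 32851 windows of the same length. The 5 were Clec4g, Robo4, Egfl7, Stab1 and Stab2, so genes called in either direction held it. The composite FOX:ETS motif AACAGGAA was found at Egfl7 alone (2.2% of all windows), CCGGAA at Kdr alone (12.0%), the SOX motif AACAAT at Tek alone (9.4%), and the GATA motif AGATAA at none (3281 of the 32851 windows). Of 3 Egfl7 windows the first held AGGAAG and AACAGGAA, the second held AGGAAG once and the third held neither, and the first is shown. The promoters of both genes higher in E13 hepatoblasts and of 2 sinusoidal genes higher in adult hepatocytes are shown from 5′ to 3′, ending at the base before the start site, with AGGAAG or its reverse complement and AACAGGAA in capitals. They lie at chr2:26580833-26581082 (Egfl7, plus strand), chr14:31168642-31168891 (Stab1, minus), chr10:87007943-87008192 (Stab2, minus) and chr8:3720652-3720901 (Clec4g, minus). At Egfl7 the 2 motifs overlap, together spanning positions -92 to -84 from the start site.
Egfl7 promoter, first window: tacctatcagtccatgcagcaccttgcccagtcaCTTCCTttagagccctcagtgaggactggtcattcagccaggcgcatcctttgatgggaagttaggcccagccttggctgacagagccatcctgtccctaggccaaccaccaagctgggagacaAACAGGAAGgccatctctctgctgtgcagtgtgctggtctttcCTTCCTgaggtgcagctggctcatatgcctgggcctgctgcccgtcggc
Stab1 promoter: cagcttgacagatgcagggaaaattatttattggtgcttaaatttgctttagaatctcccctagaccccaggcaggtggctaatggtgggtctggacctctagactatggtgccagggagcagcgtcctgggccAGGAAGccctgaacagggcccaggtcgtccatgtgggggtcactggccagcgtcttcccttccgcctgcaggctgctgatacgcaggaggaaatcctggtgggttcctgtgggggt
Stab2 promoter: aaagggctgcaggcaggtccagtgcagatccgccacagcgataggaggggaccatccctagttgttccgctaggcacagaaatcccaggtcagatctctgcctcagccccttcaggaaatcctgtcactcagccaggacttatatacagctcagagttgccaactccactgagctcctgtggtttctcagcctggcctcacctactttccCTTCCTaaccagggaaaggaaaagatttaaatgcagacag
Clec4g promoter: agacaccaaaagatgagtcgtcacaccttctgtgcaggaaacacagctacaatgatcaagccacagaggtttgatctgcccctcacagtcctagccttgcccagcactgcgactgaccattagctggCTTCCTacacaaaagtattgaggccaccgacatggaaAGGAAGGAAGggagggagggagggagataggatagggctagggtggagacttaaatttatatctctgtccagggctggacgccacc
A match is a description of the letters and shows no binding.

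Endothelial identity genes went in both directions. Of 30 genes, 25 were tested, of which 7 were higher in adult hepatocytes, 4 were higher in E13 hepatoblasts and 14 were neither, beside 32.1% and 32.8% of all genes called in these directions. The median log2 fold was 0.61. Ptprb, an endothelial receptor phosphatase, was 29.4-fold higher in adult hepatocytes, Sox7, a transcription factor of endothelial cells, at least 5.07-fold and Mmrn2, a matrix protein of vessels, 6.43-fold (adjusted p = 0.00806, 0.000522 and 0.0298 in limma). The adjusted p of Sox7 is that of its fitted fold, not of the bound. Ptprb read -2.66 on E13 array 1, -5.13 on E13 array 2, where it was not detected, and 0.58 and 1.39 on the adult arrays, and was at least 42.8-fold higher without E13 array 1 and 12.5-fold without E13 array 2. Sox7 was at least 4.54-fold higher without E13 array 1 and at least 5.65-fold without E13 array 2. Tal1, a transcription factor of blood and endothelial precursors, was at least 6.52-fold higher in E13 hepatoblasts. Its fitted log2 fold, against adult signals that were not detected, was -4.11 (adjusted p = 0.00862 in limma). This fitted fold was -3.30 without E13 array 1 and -4.93 without E13 array 2. Tie1, the orphan relative of Tek, had a log2 fold of 1.66 (adjusted p = 0.0701), and Cd34, a sialomucin of vessels and blood progenitors, one of -0.51 (adjusted p = 0.594, both limma).

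These counts moved with the E13 array used. Without E13 array 1, 11 identity genes were called higher in adult hepatocytes and 2 in E13 hepatoblasts, and without E13 array 2 the counts were 4 and 8. Without adult array 1 only 3 were called higher in adult hepatocytes. The call of Mmrn2 was lost without adult array 1 (adjusted p = 0.0849) and without adult array 2 (adjusted p = 0.114, both limma), and its fold was 3.76 without E13 array 1 and 1.61 without E13 array 2. Tie1, not detected on E13 array 2, had a fold of at least 1.87 without E13 array 1 and of 0.76 without E13 array 2, and was called in the former fit, without the E13 spread. Cd34 turned to a fold of 0.61, not called, without E13 array 1 and was called at -1.63 without E13 array 2, again without the E13 spread. The summed signal of the list was 15.1 on E13 array 1, 8.18 on E13 array 2 and 13.9 and 14.7 on the adult arrays. In these sums, scaled to the 75th percentile, E13 array 1 lay slightly above both adult arrays and E13 array 2 below them. This order depends on the scaling. The spike-in probes lay 3.02 and 3.21 above the 75th percentile on the E13 arrays and 4.34 and 4.36 above it on the adult arrays.

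Of 25 measured sinusoidal endothelial genes, 18 were tested, of which 11 were higher in adult hepatocytes (32.1% of all genes were), 3 were higher in E13 hepatoblasts (32.8% of all genes) and 4 were neither. The median log2 fold was 1.39. Without adult array 1 only 7 were called higher in adult hepatocytes, and without E13 array 2 the calls in E13 hepatoblasts went to 5. Dnase1l3, a secreted DNA-degrading enzyme, read -5.23 and -6.59 on the E13 arrays, not detected, and 0.09 and 0.40 on the adult arrays. It was at least 28.6-fold higher in adult hepatocytes, or at least 25.6-fold without E13 array 1 and at least 31.8-fold without E13 array 2. The adjusted p of 0.000681 in limma is that of its fitted fold, not of the bound. The fatty acid and thrombospondin receptor Cd36 was not detected on E13 array 2, and its fitted fold of 62.3 in favour of adult hepatocytes was 27.2 without E13 array 2 and at least 29.7 without E13 array 1 (adjusted p = 0.00441 with all arrays, limma). The scavenger receptor Colec12 was 18.6-fold higher in adult hepatocytes (adjusted p = 0.00038 in limma), and 23.4-fold and 14.7-fold without E13 array 1 and 2.

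Gpr182, a receptor of sinusoidal and lymphatic endothelium, went with Stab1. It read 2.69 and 2.36 on the E13 arrays and -0.12 and 0.37 on the adult arrays and was 5.27-fold higher in E13 hepatoblasts (adjusted p = 0.00135 in limma), with a gap of 0.32 between the E13 arrays and log2 folds of -2.24 and -2.56 without E13 array 1 and 2. Oit3, a gene of sinusoidal endothelium, had a log2 fold of 1.70 (adjusted p = 0.168) and Wnt2, a Wnt ligand of sinusoids, one of 0.04 (adjusted p = 0.947, both limma). Oit3 had a gap of 2.71 between the E13 arrays, with a fold of 3.06 without E13 array 1 and 0.35 without E13 array 2, and it was called without E13 array 1, again without the E13 spread. Wnt2 turned to -0.67, not called, without E13 array 2 and to -0.04 without adult array 2. Lyve1, a hyaluronan receptor of sinusoidal and lymphatic endothelium chosen after its values were seen, read -1.99 on E13 array 1, the array that alone detected it, -5.11 on E13 array 2 and -4.54 and -4.02 on the adult arrays. Its E13 gap was at least 2.44.

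Of 30 ligands and receptors that act on endothelium, 17 were tested. Of these 7 were higher in E13 hepatoblasts, 4 in adult hepatocytes and 6 were neither, beside 32.8% and 32.1% of all genes called in these directions, and the median log2 fold was -0.13. More than 2-fold higher on E13 array 1 than on E13 array 2 were 4 of the 17 (23.5%), against 2.26% of all genes with undetected values at their bounds. Robo1, a Slit receptor of the Roundabout family, went against its relative Robo4. It read 2.34 and 2.43 on the E13 arrays and -2.17 and -1.39 on the adult arrays, a log2 fold of -4.17 and so higher in E13 hepatoblasts (adjusted p = 0.000515 in limma), with -4.21 and -4.12 without E13 array 1 and 2. Bmp9 (Gdf2 on the array), a ligand of the endothelial receptor Acvrl1, was 10.6-fold higher in E13 hepatoblasts (adjusted p = 0.0052 in limma). Ackr3 (Cxcr7 on the array), a scavenging receptor for Cxcl12, was at least 1.84-fold higher in E13 hepatoblasts. The adjusted p of 0.00195 in limma is that of the fitted fold of Ackr3, not of the bound. Bmp9 read 1.39 and -0.13 on the E13 arrays, and its difference was 6.26-fold without E13 array 1 and 17.9-fold without E13 array 2. The fitted log2 fold of Ackr3, -2.97 against adult signals that were not detected, was -2.51 and -3.43 without E13 array 1 and 2, and its call was lost with normexp correction (-0.22, adjusted p = 0.305 in limma).

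Of the VEGF ligands and co-receptors on the list, Nrp2, a co-receptor, was 18.1-fold higher in adult hepatocytes (adjusted p = 0.00567 in limma). Its log2 fold was 3.19 without E13 array 2 and at least 4.87 without E13 array 1, since E13 array 2 did not detect it. Nrp1, the other co-receptor, was 8.60-fold higher in adult hepatocytes (adjusted p = 0.00062 in limma) and was detected on every array. Vegfb and Vegfc were 5.75-fold and 2.26-fold higher in E13 hepatoblasts (adjusted p = 0.00113 and 0.00592 in limma). Pgf was not called (adjusted p = 0.0651 in limma). Nrp1, Vegfb, Vegfc and Pgf were named after their values were seen. Vegfa, the main ligand of Kdr, read 2.89 and 2.71 on the E13 arrays and 2.998 and 2.992 on the adult arrays. Its log2 fold was 0.20 (adjusted p = 0.299 in limma), so that no difference was shown. The mean over the tested Vegfa probes gave 0.70 (adjusted p = 0.0129) and spike-in scaling gave -1.04 (adjusted p = 0.0048, both limma), so the call and direction of Vegfa depended on these choices. The 6.15-fold difference in its receptor Kdr was a call lost with either adult array left out and with spike-in scaling. Vegfd (Figf on the array) had a log2 fold of -0.13 (adjusted p = 0.664 in limma), which turned to 0.17 without E13 array 1, and spike-in scaling called it at -1.36 (adjusted p = 0.00575 in limma). Angpt1 and Angpt4, ligands of Tek, and Slit2 and Slit3, ligands of Roundabout receptors, were among 8 genes of the list not detected on any array.

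**Figure D4:**
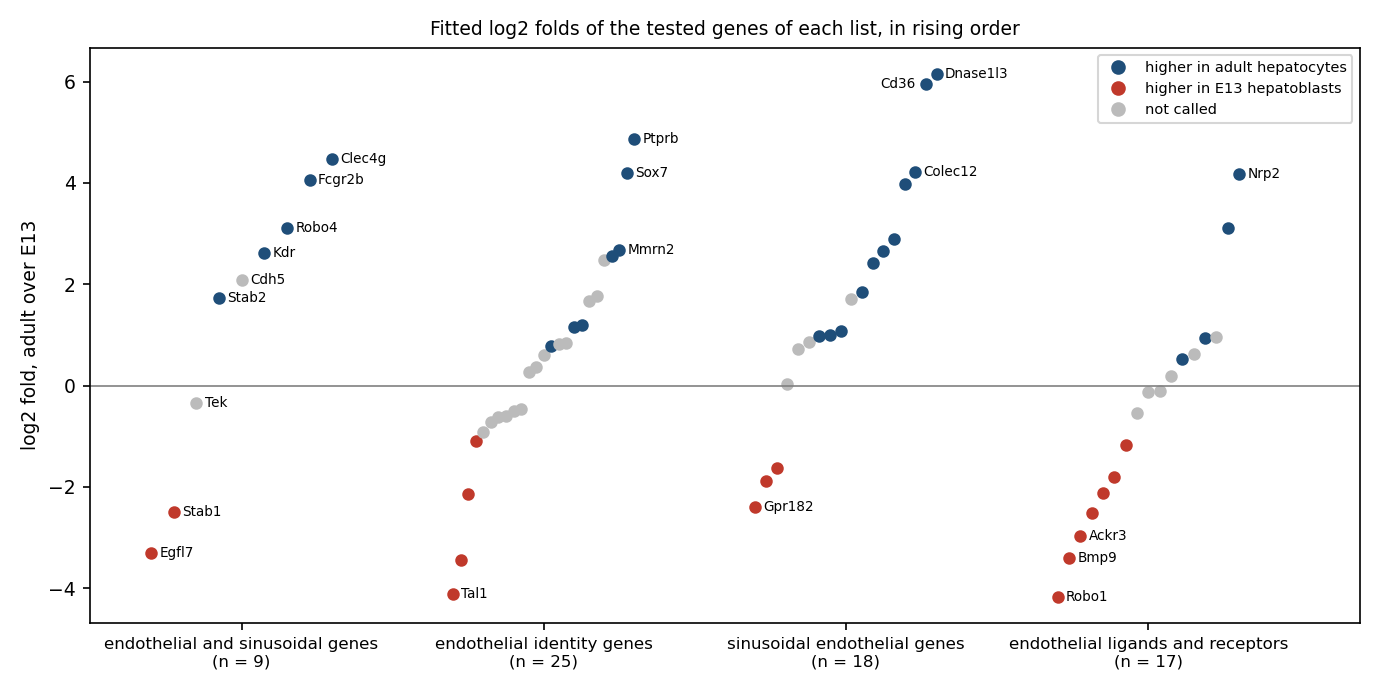
Fitted log2 fold, adult over E13, of each tested gene in 4 lists, in rising order within the list, with blue and red points for genes called higher in adult hepatocytes or in E13 hepatoblasts and grey points for genes not called. The 9 tested endothelial and sinusoidal genes hold 5 blue and 2 red points, the sinusoidal list 11 blue and 3 red of 18, and the identity list 7 blue and 4 red of 25.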

How the data were processed

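Intensity values were deposited for each array. Agilent Feature Extraction (version 10.7.3.1), per the file headers, subtracted background, detrended within the array and set surrogate values for spots not above background. The deposited log2 values of the authors' series table differed from the log2 signal minus the 75th percentile of the array, as computed here, by at most 0.0024 on any array. Detection and outlier marks of spots, stored as other values, are those of the deposited files, per the file headers.

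Here log2 processed signals were averaged over the unflagged spots of a probe and the 75th percentile of the array was subtracted. The 1639 control spots and 18 probes without a usable value were left out. A probe counted as well above background on an array where more than 50% of its spots were marked so, and was tested if this held on both arrays of at least 1 group. The tested probe with the highest mean over the arrays represented a gene. Groups were compared with lmFit and eBayes of limma 3.58.1 in R 4.3.3, with 2 residual and 2.55 prior degrees of freedom, all 4 arrays and no block, and p-values were adjusted by the Benjamini-Hochberg method over 16422 genes. Folds of genes not detected in a group are bounds and the small number of arrays sets the precision, with a median standard error of 0.18 for log2 folds. The fit was tested on simulated data in which few probes differed, unlike here, so that test is no support for the calls.

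The 10 genes and the lists were chosen with earlier results of these data known. Beyond the 10 genes, the text names per related list the 3 called genes with the largest fold in the more frequent direction, the largest in the other direction and the first 2 uncalled genes in list order, and per marker list the 3 largest differences and genes never detected. Probe positions (mm9) come from the array files. Of the 16 probes 14 had a RefSeq accession, and all 14 matched the same symbol in RefSeq of GRCm38.p6, which also gave the promoters and the microRNA. The numbers were not taken as pairs, because the labels do not say what a shared number means. Same-numbered arrays deviated with a correlation of -0.156, which cannot decide on pairing with 2 arrays per group. All arrays were on 1 slide with 1 scan time.

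Alternatives were normexp correction (offset 50), quantile normalization, both, scaling to probes detected on all arrays or to 8 spike-in probes, 3 other filters for dim probes, averaging the probes of a gene, the deposited log2 values, eBayes with its trend and robust options, an adjusted p under 0.01, a 2-fold minimum, the replicate number as a block, a crossed block and leaving out each array.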

Additional observations from a re-analysis of the deposited data

How the results depend on the processing

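Egfl7 and Stab1 stayed higher in E13 hepatoblasts, and Clec4g and Fcgr2b higher in adult hepatocytes, in every setting that could represent them. The number of the 10 genes called higher in E13 hepatoblasts was 2 or 3 throughout, and that called higher in adult hepatocytes, 5, went to 2 with spike-in scaling and at an adjusted p under 0.01, to 3 when probes had to be detected on all arrays or on at least 1, and to 2 to 6 with 1 array left out. The median fold of 2.09 became 1.37 with normexp, 1.32 with normexp and quantile, 0.86 with spike-in scaling, 1.74 with probes detected on all arrays and 0.91 to 3.59 with 1 array left out. With spike-in scaling the genes called in E13 and in adult cells were 11272 and 2006 of all genes, 10 and 2 of the identity genes, 13 and 2 of the ligands and receptors, and 7 in adult cells of the sinusoidal genes, and without a filter on dim probes 14614 of all genes were higher in adult cells. At an adjusted p under 0.01 the identity calls were 2 and 2, the ligands and receptors had 2 in adult cells, also with a 2-fold minimum, and the sinusoidal genes 7. Probes detected on all arrays left 4 identity and 6 sinusoidal genes higher in adult cells, and normexp gave 12 identity genes. With 1 array left out, identity calls were 2 to 8 in E13 and 3 to 11 in adult cells, and sinusoidal calls 2 to 5 and 7 to 12. The direction turned for Cd34 (0.26 with normexp, -1.63 to 0.61 with 1 array left out), Tek (0.38 with normexp), Vegfa (-0.044 with quantile, -1.04 with spike-in scaling), Vegfd (0.30 with normexp, 0.026 with normexp and quantile, -0.43 to 0.17 with 1 array left out) and Wnt2 (-0.0012 with normexp and quantile, -1.19 with spike-in scaling, -0.67 to 0.75 with 1 array left out). Fits without an array take their spread from the pair of the other group. Apart from settings that use fewer genes, probes or arrays, the cause was not tested. With the replicate number as a block, 2 and 5 of the 10 genes were called, as without it, and 9 identity genes in place of 7 were higher in adult cells, Tie1 among them. A crossed pairing, added after the data were examined, gave 2 and 5. A block for slide or scan could not be fitted with 1 slide and 1 scan time, and signals near background limited Pecam1, Tek and Cdh5.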
